A study of Mus musculus with 10 samples.

Results

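The 10 genes described here, Sparc, Sparcl1, Fbln5, Fbln1, Spon2, Cyr61, Ctgf, Kazald1, Thbs1 and Eln, encode secreted matricellular and elastic fibre proteins and were picked by name from the 54532 genes of the deposited table. They were picked with the DUSP6 KO against WT differences of these same spleens in view, so those differences are given as a description and support nothing by themselves. RNA was sequenced from whole spleens of 5 DUSP6 KO mice, homozygous for the Dusp6tm1Jmol deletion, and 5 WT (C57BL/6J) mice, aged 8 to 12 weeks as in all experiments of the study. The sample labels name the mutant genotype a knockdown. Every mouse of both genotypes had KRN serum-induced arthritis (KSIA), a passive model in which serum of arthritic KRN x NOD F1 mice, pooled over batches, transfers the disease. The serum was injected intraperitoneally at 100 µL on days 0 and 2, and spleens were taken at day 9. Mice without serum were not analysed here, so the level before arthritis is not known. The deletion is present in every cell type of the mouse, and each library is 1 spleen of 1 mouse.

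Matricellular proteins are secreted into the extracellular matrix but act mainly by binding growth factors, integrins and structural fibres rather than by bearing load. Elastic fibres consist of an elastin core laid down on a scaffold of fibrillin microfibrils, with fibulins helping in the assembly. In the spleen such genes are expected from reticular fibroblasts, endothelium, smooth muscle of vessels and trabeculae, the capsule and, for thrombospondin 1, megakaryocytes and platelets.

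Reads on genes, recovered from the FPKM values, came to 14990474 to 19822673 for the DUSP6 KO spleens and 15611652 to 18422147 for WT. Expression is given as FPKM, fragments scaled by gene length and by library size, as the authors computed it. The library sizes used for that scaling were 0.949 to 1.12 times the recovered totals. Dusp6 ran from 0.308 to 0.624 FPKM in DUSP6 KO and from 16.6 to 24.0 FPKM in WT, as the labels require. The protocol names mice of both sexes. In all 10 libraries the Y-linked Ddx3y was at 14.4 FPKM or more and Xist at 0.0206 FPKM or less, the pattern of male mice. All 8 genes chosen to define spleen (B cell and red pulp macrophage genes and Tlx1) were detected. WT replicate 67 stood apart, with 13297 FPKM summed over 8 exocrine pancreas genes against 13.2 to 168 in the other WT libraries, and with 46.3 FPKM summed over 6 adipocyte genes. DUSP6 KO replicate 73 had an adipocyte sum of 30.5 FPKM, against at most 1.51 in the other DUSP6 KO libraries. Values without these libraries are given for several members below.

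All 10 members were expressed well above the filter of a mean of 0.1 FPKM, and the smallest number of reads of any member in any library was 93 (Fbln1). In WT spleens Sparc had the highest level, 75.3 ± 6.3 FPKM (SD, n = 5), above 97.2% of the genes tested. Sparcl1 followed at 35.1 ± 6.3 FPKM and Kazald1 at 26.1 ± 4.3 FPKM. Thbs1 (15.5 ± 5.0 FPKM) and Ctgf (13.9 ± 4.5 FPKM) came next, then Fbln5 (8.13 ± 0.94 FPKM) and Cyr61 (5.36 ± 1.36 FPKM). Eln (4.27 ± 1.01 FPKM), Spon2 (3.08 ± 0.60 FPKM) and Fbln1 (1.73 ± 0.59 FPKM) were the lowest. Because FPKM is per length, neighbours in this order can be set side by side within each library. The order was taken from the WT means, so the counts that follow describe it and carry no test. In 7 of the 9 neighbouring pairs the upper gene was higher in all 5 WT libraries, and the exceptions were Cyr61 above Eln in 4 of 5 and Thbs1 above Ctgf in 3 of 5. In DUSP6 KO the order held in all 5 libraries for 4 of the 9 pairs. Thbs1 was above Ctgf there in 1 of 5 libraries, and Fbln5 above Cyr61 and Eln above Spon2 in 3 of 5 each, so these neighbours overlap in that group.

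**Figure D1:**
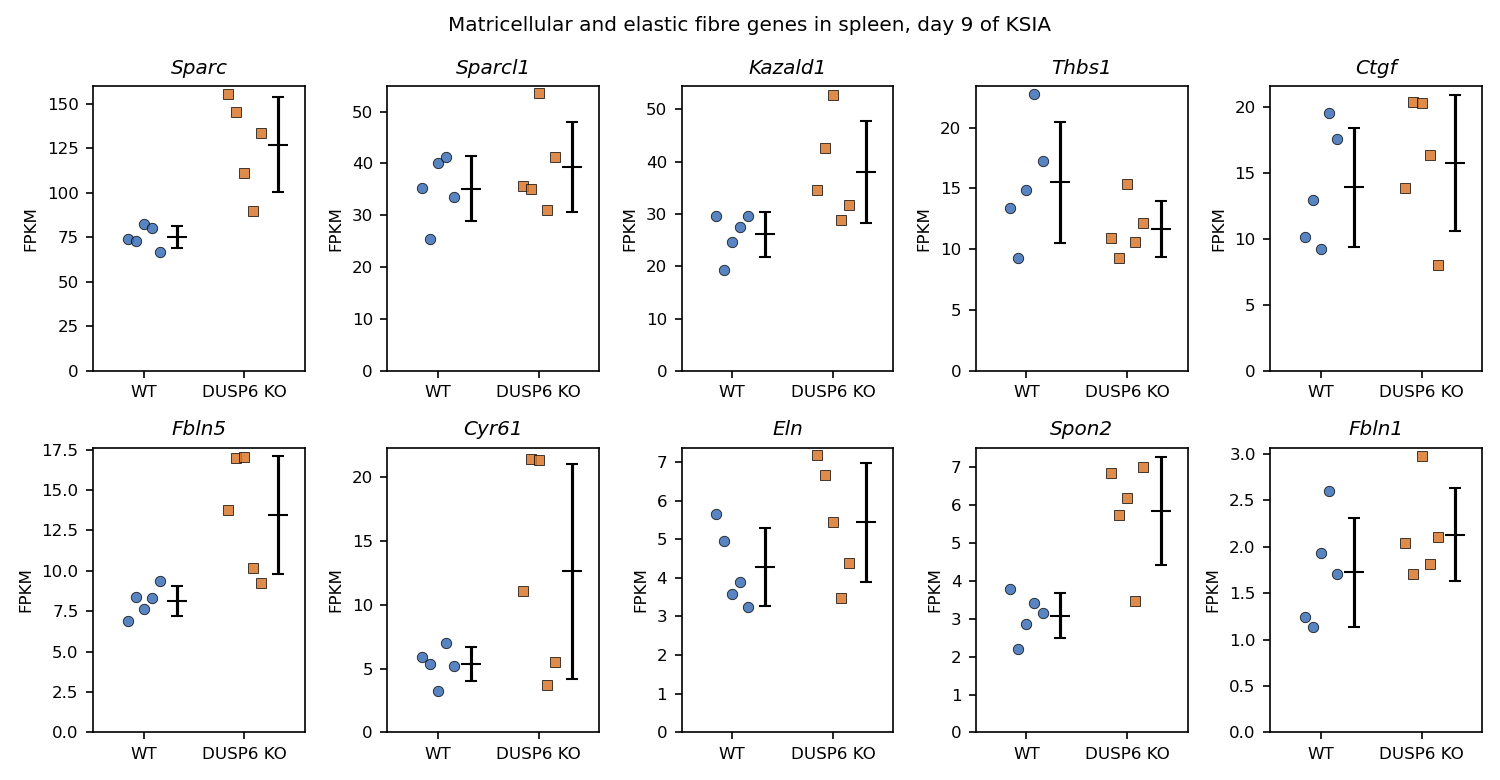
FPKM of the 10 members in each spleen (WT circles, DUSP6 KO squares), ordered by WT level, with mean ± SD beside the points and every axis starting at 0. The groups do not overlap for Sparc alone, and the DUSP6 KO values of Cyr61 run from 3.69 to 21.4 FPKM.

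Differences between the genotypes were fitted with limma on log2(FPKM + 0.1) over the 21296 genes whose mean reached 0.1 FPKM. Of the 10 members, 9 had a positive log2 fold change in DUSP6 KO and 1, Thbs1, a negative one, and positive values made up 49.0% of all genes tested. The median log2 fold change of the members was 0.42, against −0.0046 over all genes. After adjustment over all genes, 0 members were called at 0.05, by limma or by limma voom on recovered reads, and limma called 0.0704% of the genes. These counts hold for limma and voom only, since a negative-binomial test of the recovered reads was not run here. The adjusted p ran from 0.25 for Sparc to 0.99 for Ctgf. At an unadjusted p under 0.05, 4 members (Sparc, Spon2, Fbln5 and Kazald1) were higher and none lower in limma, and 4 were past it in voom too. By that limma rule 2.62% of all genes were higher and 3.03% lower. In voom 5.02% of all genes were past an unadjusted p of 0.05 in either direction. Without WT replicate 67, Thbs1 was lower at an unadjusted limma p of 0.015, and the count of members ran from 4 to 6 with each library left out. In 1 member, Sparc, every DUSP6 KO value lay above every WT value, as in 0.549% of the genes, and 1.11% of the genes were without overlap in either direction. The members were chosen with these values known, so nothing is read from the counts. With whole spleens, fewer cells of a type and less RNA per cell cannot be told apart.

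**Figure D2:**
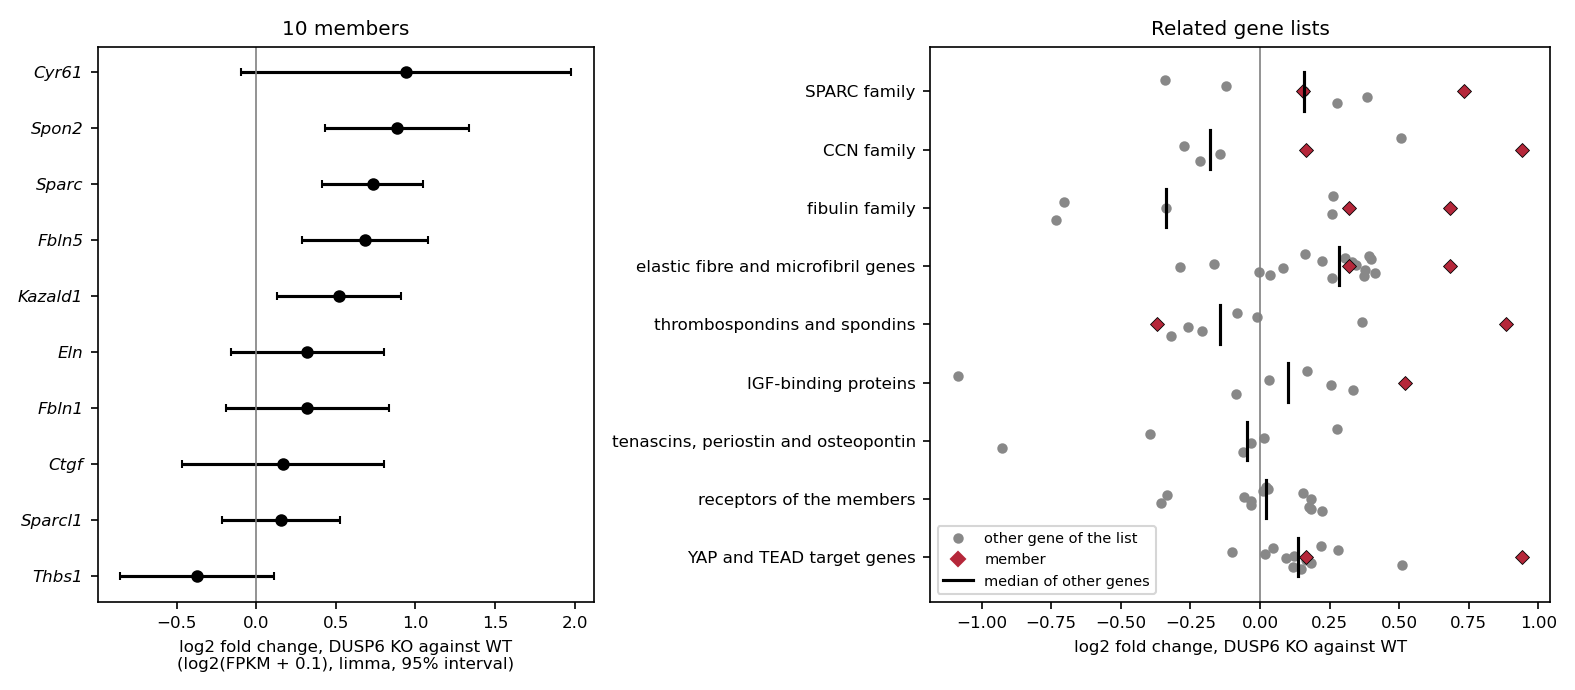
Left, log2 fold change of each member in DUSP6 KO against WT with its 95% interval from limma; right, the members (diamonds) among the other tested genes of 9 related lists (grey), with the median of those other genes as a bar. The elastic fibre list lies mostly to the right of 0, with a median of 0.28, while the other CCN and fibulin genes have medians of −0.18 and −0.34.

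Sparc (ENSMUSG00000018593, GRCm38 chromosome 11, 55394500 to 55423183, minus strand) encodes a collagen-binding glycoprotein of basement membranes and remodelling tissue. The libraries are given throughout in the order of DUSP6 KO replicates 26, 21, 73, 01 and 03 and WT replicates 65, 67, 73, 77 and 83. Its DUSP6 KO values were 90.1, 111, 134, 156 and 145 FPKM. The WT values were 74.2, 73, 82.7, 80.2 and 66.6 FPKM. The lowest DUSP6 KO spleen, replicate 26, was still above the highest WT spleen, and the DUSP6 KO values spread more widely (coefficient of variation 20.8% against 8.39%). The log2 fold change was 0.73 (standard error 0.14), which ranked 16 by p among the higher genes. With DUSP6 KO replicate 26 left out it was 0.85, and the limma adjusted p was then 0.048, the only setting with a member past the threshold. With any other library left out, the log2 fold change lay between 0.65 and 0.77 and the adjusted p between 0.23 and 0.58.

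The promoter of Sparc is shown because it belongs to the member with the clearest separation. The 250 bases before its RefSeq start on GRCm38.p6 (chr11:55420081-55420330, minus strand, written 5′ to 3′) are given here.
Sparc: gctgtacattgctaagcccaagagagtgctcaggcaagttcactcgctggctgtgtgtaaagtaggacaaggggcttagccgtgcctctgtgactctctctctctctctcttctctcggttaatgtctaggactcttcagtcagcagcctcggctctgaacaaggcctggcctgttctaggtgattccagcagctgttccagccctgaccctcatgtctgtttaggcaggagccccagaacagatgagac
None of 5 motifs searched on both strands, the TEAD motif CATTCC, the AP-1 motif TGANTCA, the ETS motif CCGGAA, the TATA box TATAAA and the CArG box, was found in the window of 300 bases that also holds the first 50 bases of the gene. Of all promoter windows of that length, 7.81% hold the AP-1 motif, 14.9% the ETS motif and 1.63% the CArG box. This start lies inside the deposited gene model, which extends further upstream.

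Sparcl1 (ENSMUSG00000029309, chromosome 5, 104079111 to 104113733, minus strand) encodes hevin, the nearest relative of SPARC. The DUSP6 KO spleens had 31.0, 53.5, 41.3, 35.7 and 35 FPKM. The WT spleens had 35.3, 25.5, 40.1, 41.3 and 33.5 FPKM. The groups overlapped almost entirely, with DUSP6 KO replicate 21 highest and WT replicate 67 lowest. Its log2 fold change was 0.16 (standard error 0.17), and it became 0.038 and 0.045 without the first and the second of these libraries. Of 6 other genes in the SPARC family list, 5 were tested, of which 3 had a positive and 2 a negative log2 fold change (median 0.16), and 0 of the 5 fell below an unadjusted limma p of 0.05. Among them Fstl1, a follistatin-like secreted protein, had the lowest p, at 13.5 ± 3.2 FPKM for DUSP6 KO and 11 ± 2.1 FPKM for WT (SD, n = 5 each).

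Fbln5 (ENSMUSG00000021186, chromosome 12, 101746565 to 101819055, minus strand) encodes fibulin 5, which binds elastin and integrins and is needed for elastic fibre assembly. In the DUSP6 KO spleens its level was 10.2, 17.0, 9.23, 13.8 and 17.0 FPKM. In the WT spleens it was 6.88, 8.41, 7.63, 8.32 and 9.39 FPKM. In DUSP6 KO, 4 of 5 spleens lay above every WT spleen, and replicate 73 fell just under the highest WT value. Fbln5 had a log2 fold change of 0.68 (standard error 0.18), which lay between 0.59 and 0.81 with each library left out in turn.

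Fbln1 (ENSMUSG00000006369, chromosome 15, 85205949 to 85286535, plus strand) encodes fibulin 1, a protein of basement membranes and plasma. Its level ran from 1.71 to 2.98 FPKM in DUSP6 KO and from 1.14 to 2.60 FPKM in WT, and its highest spleens were DUSP6 KO replicate 21 and WT replicate 77. Fbln1 had a log2 fold change of 0.32 (standard error 0.23), and 0.19 without WT replicate 67. The rest of the fibulin list was mixed in direction. Of 5 other fibulin genes tested, 2 were positive and 3 negative (median −0.34). Efemp1, which encodes fibulin 3, was at 0.973, 1.97, 2.35, 1.09 and 2.96 FPKM over DUSP6 KO and 3.07, 2.13, 3.39, 4.34 and 2.19 FPKM over WT spleens. The groups overlapped, and its log2 fold change of −0.73 (standard error 0.32) had an unadjusted limma p of 0.041 and an adjusted p of 0.85.

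Eln (ENSMUSG00000029675, chromosome 5, 134702593 to 134747323, minus strand) encodes tropoelastin, the monomer of the fibre core. Values of 3.48, 5.46, 4.37, 7.18 and 6.67 FPKM were measured in DUSP6 KO. In WT they were 5.66, 4.96, 3.58, 3.90 and 3.25 FPKM. Replicates 01 and 03 of DUSP6 KO exceeded all WT values, and the other 3 lay within the WT range. Eln had a log2 fold change of 0.32 (standard error 0.22), and 0.21 without DUSP6 KO replicate 01. Of 16 other elastic fibre and microfibril genes tested, 13 were positive and 3 (Ltbp1, Lox and Loxl3) negative, with a median log2 fold change of 0.28. None of the 16 had an unadjusted limma p under 0.05. Fbn1, which encodes the main microfibril protein fibrillin 1, had the lowest p of these (0.059) and averaged 2.51 ± 0.66 FPKM over DUSP6 KO and 1.83 ± 0.34 FPKM over WT spleens (SD, n = 5 each). Its log2 fold change was 0.41.

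Spon2 (ENSMUSG00000037379, chromosome 5, 33198184 to 33218455, minus strand) encodes mindin, a secreted spondin known as a pattern recognition molecule for bacteria and an integrin ligand. The DUSP6 KO spleens had 3.47, 6.18, 6.99, 6.84 and 5.75 FPKM. The WT spleens had 3.79, 2.20, 2.85, 3.41 and 3.14 FPKM. DUSP6 KO replicate 26 lay inside the WT range and the other 4 spleens lay above it. Spon2 had a log2 fold change of 0.88 (standard error 0.20), 1.06 without replicate 26 and 0.77 without WT replicate 67. The mean was 1.90 times the WT mean.

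Thbs1 (ENSMUSG00000040152, chromosome 2, 118111876 to 118127133, plus strand) encodes thrombospondin 1, which is stored in platelet granules, activates latent TGF-beta and binds CD36 and CD47. In the DUSP6 KO spleens its level was 10.6, 15.4, 12.1, 10.9 and 9.27 FPKM. In the WT spleens it was 13.4, 9.31, 14.9, 22.8 and 17.2 FPKM. WT replicates 77 and 83 exceeded all DUSP6 KO values, while WT replicate 67, the library with the high exocrine pancreas sum, was near the lowest DUSP6 KO spleen. For Thbs1 the log2 fold change was −0.37 (standard error 0.22), −0.22 without WT replicate 77 and −0.54 without WT replicate 67. Of 6 other thrombospondin and spondin genes tested, 1 (Thbs2, log2 fold change 0.37) was positive and 5 negative, with a median of −0.14 and 0 below an unadjusted limma p of 0.05.

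Cyr61 (ENSMUSG00000028195, also named Ccn1, chromosome 3, 145646976 to 145649981, minus strand) and Ctgf (ENSMUSG00000019997, also named Ccn2, chromosome 10, 24595442 to 24598683, plus strand) encode CCN proteins, integrin ligands whose genes are known early targets of serum, TGF-beta and the YAP and TEAD factors. In DUSP6 KO the level of Cyr61 was 3.69, 21.3, 5.54, 11 and 21.4 FPKM. In WT its level was 5.94, 5.40, 3.27, 7.0 and 5.2 FPKM. In DUSP6 KO, 3 spleens exceeded all WT values and 2, replicates 26 and 73, were within the WT range. The coefficient of variation was 67% in DUSP6 KO and 25.4% in WT, the widest DUSP6 KO spread of the 10 members. The log2 fold change was 0.94 (standard error 0.47), the largest of the members and the least precise. It lay between 0.67 (without DUSP6 KO replicate 03) and 1.30 (without replicate 26), and its adjusted p in limma was 0.92. Without DUSP6 KO replicate 73 it was 1.2, with an unadjusted limma p of 0.041.

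The promoter of Cyr61 is shown because it holds matches to the searched motifs, among them the one bound by TEAD factors. The 250 bases before its RefSeq start on GRCm38.p6 (chr3:145649986-145650235, minus strand) read as follows, 5′ to 3′, with motif matches in capitals.
Cyr61: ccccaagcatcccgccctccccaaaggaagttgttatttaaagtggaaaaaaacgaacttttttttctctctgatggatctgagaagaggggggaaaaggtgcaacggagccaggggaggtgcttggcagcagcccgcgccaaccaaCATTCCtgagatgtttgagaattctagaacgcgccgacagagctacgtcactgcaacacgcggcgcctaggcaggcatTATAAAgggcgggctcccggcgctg
The first match is the TEAD motif CATTCC, beginning at position −103 from the start, and the second is the TATA box TATAAA at −25. Of all 32851 promoter windows of 300 bases in the RefSeq table, 14.7% hold CATTCC and 13.6% hold TATAAA on either strand. Promoters were matched for 5 members (Sparc, Fbln5, Fbln1, Cyr61 and Kazald1, with 8 windows). Apart from the matches in Cyr61, the 5 motifs had 1 match in these windows, CATTCC in the second Kazald1 window.

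The other CCN member, Ctgf, is given in the same way. The DUSP6 KO spleens had 16.3, 20.3, 7.99, 13.8 and 20.4 FPKM. The WT spleens had 10.1, 12.9, 9.26, 19.5 and 17.6 FPKM. Its lowest spleen was DUSP6 KO replicate 73, its highest were DUSP6 KO replicates 03 and 21, and the groups overlapped over almost the whole range. The log2 fold change was 0.17 (standard error 0.29), 0.39 without DUSP6 KO replicate 73 and 0.04 without WT replicate 73. The other 4 genes of the CCN family list were low, Wisp2 reaching 1.77 FPKM on average in WT, and 1 of them was positive and 3 negative (median −0.18). Wisp3, with the lowest p of these, had at most 6 reads in a library. Of 12 other YAP and TEAD genes tested, 11 were positive and 1 (Nuak2) negative, with a median log2 fold change of 0.14. Amotl2, which encodes a junctional inhibitor of YAP, was the only one at an unadjusted limma p under 0.05 (0.045, adjusted p 0.86). It was at 3.05, 7.18, 3.58, 4.89 and 5.38 FPKM over DUSP6 KO and 3.90, 3.39, 2.45, 2.84 and 3.66 FPKM over WT spleens. As for Cyr61, DUSP6 KO replicates 26 and 73 lay within the WT range and the other 3 above it.

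Kazald1 (ENSMUSG00000025213, chromosome 19, 45075241 to 45079289, plus strand) encodes a secreted protein with a Kazal domain, related to the IGF-binding proteins. In the DUSP6 KO spleens its level was 28.8, 52.8, 31.6, 34.5 and 42.6 FPKM. In the WT spleens it was 29.6, 19.4, 24.6, 27.5 and 29.6 FPKM. Of the DUSP6 KO replicates, 4 of 5 exceeded the whole WT range, with replicate 26 just inside the WT range. The log2 fold change was 0.52 (standard error 0.18), 0.40 without DUSP6 KO replicate 21 and 0.42 without WT replicate 67. Of 6 other IGF-binding protein genes tested, 4 were positive and 2 negative (median 0.10). Igfbp7, the most highly expressed of them, averaged 536 ± 95 FPKM over DUSP6 KO and 473 ± 37 FPKM over WT spleens (SD, n = 5 each). Igfbp6, with the lowest p, had the opposite sign and ran from 0.964 to 5.2 FPKM over DUSP6 KO and from 2.31 to 10.4 FPKM over WT spleens. Its log2 fold change was −1.08 (standard error 0.44), with an unadjusted limma p of 0.033 and an adjusted p of 0.82.

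Over the 9 related lists together, 72 genes that are not members were tested, of which 44 had a positive and 28 a negative log2 fold change (median 0.07). At an unadjusted limma p under 0.05, 1 was higher (Amotl2) and 2 lower (Efemp1 and Igfbp6), 4.17% of the 72 against 5.66% of all genes. None of them passed after adjustment over all genes in limma or in voom. In voom 3 of the 72 had an unadjusted p under 0.05, 4.17% against 5.02% of all genes. The 13 genes of receptors for the members had a median log2 fold change of 0.02. Itgb1, the common integrin beta chain, had the lowest p of these, averaging 103 ± 8 FPKM over DUSP6 KO and 90.8 ± 10.1 FPKM over WT spleens (SD, n = 5 each). Tenascins, periostin and osteopontin had a median of −0.05. Spp1, which encodes osteopontin, had the lowest p (0.057 in limma, unadjusted) and a log2 fold change of −0.93.

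How the members varied among mice of the same genotype does not depend on the difference between the genotypes. Deviations of log2(FPKM + 0.1) from the group means were therefore correlated over the 10 spleens, with exact permutation of libraries within groups (two-sided, 14400 arrangements) and adjustment over the 45 pairs of members. Of the 45 pairs, 39 had a positive Pearson r (median 0.34, from −0.37 to 0.93). Fbln1 and Thbs1 formed the pair with the highest r, at 0.93 (Spearman rho 0.95, permutation p = 0.00076 and 0.00049, adjusted p = 0.034 and 0.022). It was the only pair to pass, and r was 0.88 without DUSP6 KO replicate 21 and WT replicate 67. Without WT replicate 67 alone r was 0.92 and rho 0.82, and the pair no longer passed (adjusted permutation p = 0.17 and 0.33). Sparcl1 and Fbln1 followed in order of p (r = 0.84, rho = 0.83, permutation p = 0.0031 and 0.0033, adjusted p = 0.070 and 0.073, r = 0.62 without the same libraries). Fbln5 and Cyr61 had an r of 0.85 and a rho of 0.71 (permutation p = 0.035 and 0.099, adjusted p = 0.25 and 0.49), and r was 0.56 without DUSP6 KO replicates 21 and 03, so this relation did not pass and rests partly on those spleens. Sparc and Sparcl1 had an r of 0.17 and a rho of 0.09 (permutation p = 0.70 and 0.83, adjusted p = 0.85 and 0.99, r = 0.55 without DUSP6 KO replicates 01 and 03).

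The same deviations were compared with the summed FPKM of 8 marker lists, 80 relations in all. For Thbs1 and the 12 megakaryocyte and platelet genes, the relation passed, with an r of 0.97 and a rho of 0.95 (exact permutation p = 0.00049 each, adjusted p = 0.039 each), and r was 0.94 without WT replicates 77 and 83. WT replicate 67, the library with the high pancreas sum, had the lowest platelet sum, and without it the relation of Thbs1 had an r of 0.94 and a rho of 0.92 and no longer passed (exact permutation p = 0.0024 and 0.0056, adjusted p = 0.19 and 0.28). For Fbln1 and the same list, r was 0.91 and rho 0.98, passing by rho only (exact permutation p = 0.0019 and 0.00097, adjusted p = 0.075 and 0.039, r = 0.88 without WT replicates 77 and 83). Without WT replicate 67 they were 0.91 and 0.75 (adjusted exact permutation p = 0.23 and 0.45). For Sparcl1, r was 0.80 and rho 0.81 (exact permutation p = 0.0063 and 0.0060, adjusted p = 0.13 and 0.16, r = 0.97 without WT replicates 77 and 83), and without WT replicate 67 they were 0.65 and 0.48 (adjusted exact permutation p = 0.45 and 0.68). With the exocrine pancreas list, Thbs1 had an r of −0.75 and a rho of −0.61 (exact permutation p = 0.044 and 0.11, adjusted p = 0.40 and 0.53), and r was 0.08 without WT replicates 65 and 67. Fbln5 had its highest r with the reticular and fibroblast list, at 0.91, and a rho of 0.89 (exact permutation p = 0.0051 and 0.013, adjusted p = 0.13 and 0.27, r = 0.78 without DUSP6 KO replicates 21 and 03). Sparc had an r of −0.02 and a rho of −0.02 with that list (exact permutation p = 0.98 each, adjusted p = 0.98 and 1, r = −0.09 without DUSP6 KO replicates 21 and 03).

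**Figure D3:**
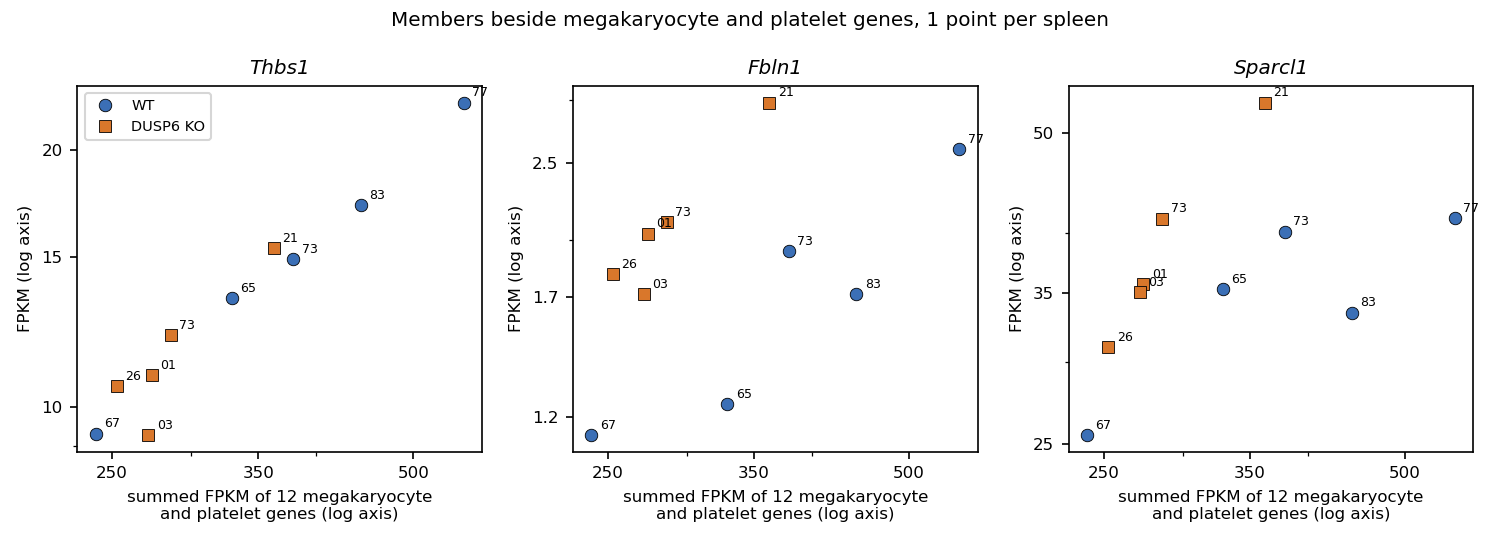
FPKM of Thbs1, Fbln1 and Sparcl1 against the summed FPKM of 12 megakaryocyte and platelet genes, 1 point per spleen, numbered by replicate, both axes logarithmic. WT replicate 77 is highest in the sum and in Thbs1, at 561 and 22.8 FPKM, and WT replicate 67 is lowest in the sum.

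Marker levels of the cell types were set beside these members. The megakaryocyte and platelet sum ran from 253 to 363 FPKM for DUSP6 KO and from 241 to 561 FPKM for WT. All 11 tested markers had a negative log2 fold change (median −0.35), with 2 below an unadjusted limma p of 0.05. By that rule, which also applies to the lists below, 3.03% of all genes were lower and 2.62% higher. Within groups, Fbln1 passed with this list by rho only and Sparcl1 did not pass. Without WT replicate 67 neither of them passed, nor did Thbs1. Fbln1 and Sparcl1 had positive log2 fold changes of 0.32 and 0.16. The reticular and fibroblast sum over 10 genes ran from 238 to 388 FPKM for DUSP6 KO and from 238 to 281 FPKM for WT, with 8 of 10 markers positive (median 0.24, 2 below an unadjusted limma p of 0.05). Its highest values were in DUSP6 KO replicates 21 and 03, which were also high for Fbln5, Cyr61 and Ctgf. The endothelial sum (123 to 170 FPKM for DUSP6 KO, 111 to 154 FPKM for WT) and the smooth muscle and pericyte sum (91.0 to 191 and 128 to 176 FPKM) overlapped, with medians over their markers of 0.07 and −0.02. Of these markers, 2 of 12 endothelial and 1 of 9 smooth muscle and pericyte genes were higher below an unadjusted limma p of 0.05. The mesothelial capsule sum ran from 3.24 to 8.03 FPKM for DUSP6 KO and from 4.65 to 16.9 FPKM for WT, with 7 of 8 markers negative (median −0.97, 1 lower below an unadjusted limma p of 0.05). No marker of these lists was at 0 reads in all libraries. The part of these cell types in the differences of the members was not tested.

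**Figure D4:**
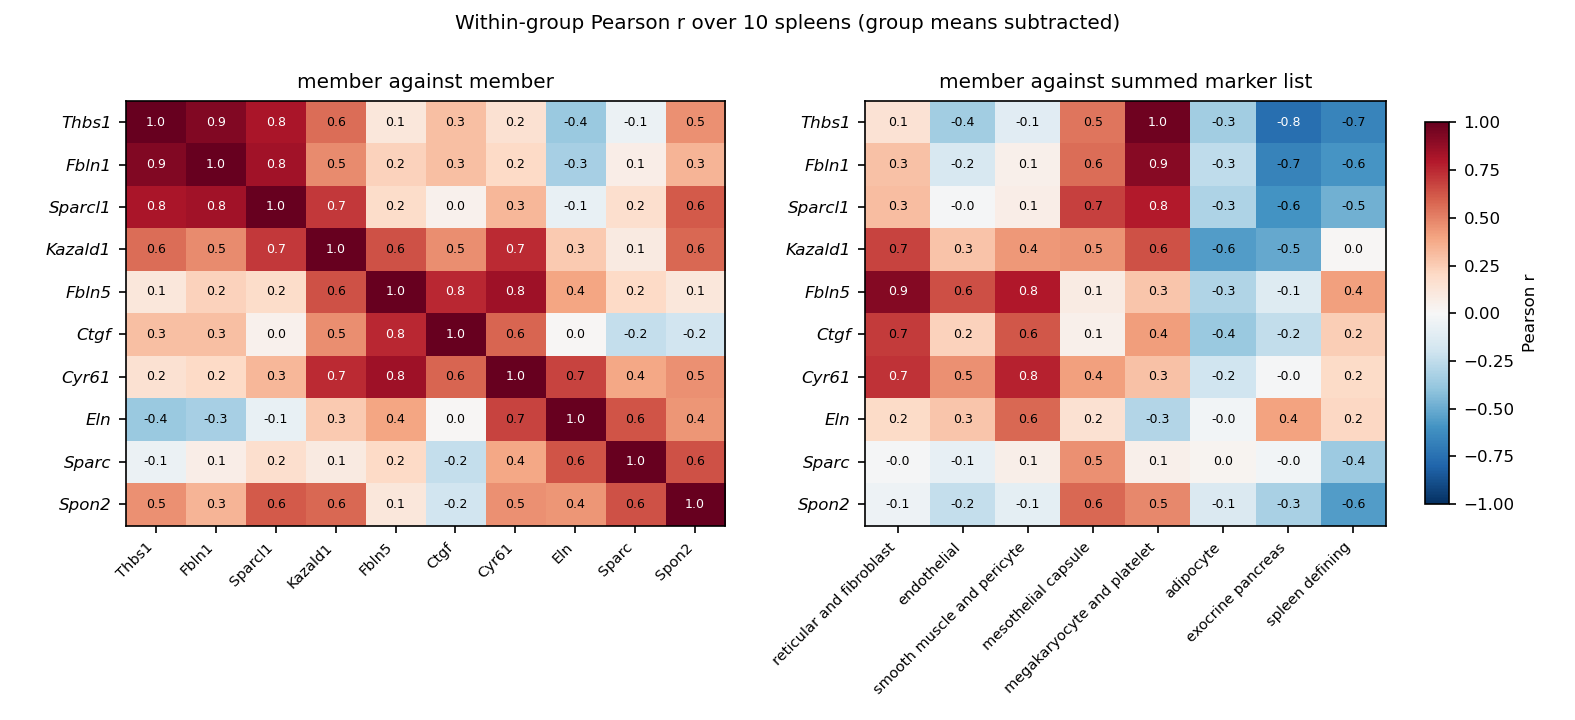
Pearson r of deviations from the group means over 10 spleens, between members (left) and between members and summed marker lists (right), printed in each cell and coloured from −1 to 1. With the megakaryocyte and platelet list r is 0.97 for Thbs1, 0.91 for Fbln1 and 0.80 for Sparcl1, of which only Thbs1 passed by r, and Fbln5, Ctgf and Cyr61 are highest with the reticular and smooth muscle lists.

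Among 13407 other genes with a mean of 1 FPKM or more, those most like Sparc within the groups were Gm24097, Tmem167b and Gpr155, each with an r of 0.89 over the 10 spleens. Their own log2 fold changes were −0.19, −0.06 and 0.07, against 0.73 for Sparc. Those most like Cyr61 were Bambi, a decoy receptor of the TGF-beta family, Scarf2 and Dact3, each with an r of 0.95. Their log2 fold changes were 0.19, 0.13 and 0.27, against 0.94 for Cyr61. These are the highest of many values and carry no test.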

How the data were processed

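Paired-end reads of poly-A RNA were aligned by the authors (Hisat2), assigned to genes (featureCounts 1.5.0-p3, per the submitters' processing notes) and deposited as FPKM values with a length per gene. Those notes name hg38, a human build, but the gene IDs are mouse and 98.1% of the 54532 genes have identical coordinates in GENCODE M21 (GRCm38), used here for positions. Whether counting used the strand is not given in the sources used here. Antisense genes overlap exons of Ctgf, Thbs1 and Eln and had at most 7 reads in a library.

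In each library, FPKM times length came in whole steps in 100% of values (tolerance 0.001 of a read), which gave the reads. The denominators of FPKM were 0.949 to 1.12 times the recovered totals, so the FPKM carries a scaling that no source explains, and rescaling to those totals was tried. Within groups, 20 library pairs differed far beyond sampling noise (chi-square per gene 14.7 to 169). Nothing in the labels says more than that each library is a different mouse, and no batch is given.

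The test was limma 3.58.1 in R 4.3.3 (eBayes, trend on) applied to log2(FPKM + 0.1) of the 21296 genes whose mean reached 0.1 FPKM, adjusted by Benjamini-Hochberg and tested on simulated data. The authors tested counts with DESeq2. That test was not repeated here, and the recovered reads were tested with limma voom only. A test of neighbouring levels was dropped, since the order came from the same libraries. Alternatives were pseudocounts of 1 and 0.01, a minimum of 1 FPKM, no filter, voom on recovered reads, a robust trend, array weights (statmod 1.5.0), median centring, quantile normalization and leaving out each library. Rescaling, leaving out 2 libraries together, relations without WT replicate 67 and part of the settings for related genes were added after the data were seen. Tables were handled with the data.table package (1.17.8), numpy 2.4.6, pandas 2.3.3 and scipy 1.17.1, and figures drawn with matplotlib 3.10.9 in Python 3.11.15. Promoters are from RefSeq (GRCm38.p6), matched by symbol or synonym. Ccl19 and Ccl21a, with 2 rows each, were left out of the marker sums.

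The members and lists were chosen with earlier results of these data known. Genes named are the members, in each related list the other gene with the lowest limma p, the 3 genes most like Sparc and Cyr61 within groups, and Dusp6. Tlx1, of the spleen list, and Ccl19 and Ccl21a, left out of the marker sums, are named too. Igfbp7, Wisp2, Nuak2, Ltbp1, Lox, Loxl3, Ddx3y and Xist were named after their values were seen.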

Additional observations from a re-analysis of the deposited data

Results flagged for a closer look

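In groups of 5 libraries, a value was examined when its gap to the nearest other value took up more than 0.71 of the range of the group, which chance gives in about 1 of 20 groups. Among 38 groups (the 10 members, 8 marker sums and read totals in each genotype), 4 had such a value, and none of the 20 groups of member values did. WT replicate 67 was set apart by its exocrine pancreas sum of 13297 FPKM (13.2 to 168 in the other WT libraries), by its adipocyte sum of 46.3 FPKM (0.672 to 1.62) and by its total of 18422147 reads (15611652 to 16348136). DUSP6 KO replicate 73 was set apart by its adipocyte sum of 30.5 FPKM (0.849 to 1.51). Without both libraries, 9 members were still positive, with a median log2 fold change of 0.46.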

How the results depend on the processing

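Over 21 alternatives, each of the 10 members kept the sign of its log2 fold change, and 209 of the 210 values stayed on the same side of the threshold. The exception was Sparc without DUSP6 KO replicate 26 (0.85, limma adjusted p = 0.048, against 0.14 to 0.93 over its other alternatives). The number of members called at an adjusted p of 0.05 or less was 0 in the main analysis and 0 to 1 with each library left out. The number of members without overlap was 1, 1 to 3 with each library left out, 3 with median centring and 2 without WT replicate 67 and DUSP6 KO replicate 73. The share of all genes without overlap moved too, from 1.11% to 1.40% with median centring, 2.18% without DUSP6 KO replicate 26 and 3.28% without both libraries. The number of members at an unadjusted p under 0.05 was 4, 6 with array weights and 4 to 6 with each library left out. Without WT replicate 67 and DUSP6 KO replicate 73 together it was 5. Thbs1 was lower with array weights, without WT replicate 67 and without both libraries. Of all genes 5.66% were below that p, 7.51% with array weights, 6.01% without DUSP6 KO replicate 26 and 6.10% without both libraries. Over the whole table, 15 genes were called, 8 without a filter and 12 to 32 with each library left out, most without DUSP6 KO replicate 21. Of the 72 other genes of the related lists, 3 were at an unadjusted p under 0.05, and 0 to 9 with each library left out (9 without DUSP6 KO replicate 26, 12.5% against 6.01% of all genes, 8 without 73, 11.1% against 5.71%, and 0 without DUSP6 KO replicate 01 or WT replicate 73, where all genes had 4.71% and 4.78%). That count was 0 without a filter, where all genes had 2.79%. It was 5 (6.94%) with median centring or quantile normalization, against 5.86% and 5.75% of all genes. Without WT replicate 67 and DUSP6 KO replicate 73 it was 7 (9.72%, against 6.10% of all genes), and with array weights 8 (11.1%, against 7.51%). The median of the members lay between 0.35 (without DUSP6 KO replicate 21) and 0.54 (without replicate 26). The cause was not tested. No paired analysis was done, since no label pairs a DUSP6 KO mouse with a WT mouse. Replicate number 73 occurs in both groups, but nothing in the labels makes it a pair. With 5 mice a group, the precision is that of the standard errors given.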
